A study of Mus musculus with 12 samples.

Results

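The genes described here are 10 genes of the type 1 helper T cell (Th1), IL-12 and interferon-gamma pathway, matched in the table by their symbols. They were chosen with earlier results of these data known. They are Il12a, Il12b, Il12rb1, Il12rb2, Tbx21, Ifng, Ifngr1, Irf1, Socs1 and Gbp5. Of these, 9 are among the 547 genes in the deposited table, and Gbp5 was not analysed here. The assay was the NanoString nCounter, which counts colour-coded probes hybridised directly to RNA, and each value is a normalized signal for 1 gene in 1 sample. The tissue was the terminal ileum, sampled as whole tissue from 12 females, 3 in each of 4 groups. The pups carried either the C57 or the IL10 genotype label, which the series describes as C57BL/6 and IL10-deficient, and no other allele is labelled. All were born to mothers that had been given cecal contents, either control contents or antibiotic-perturbed contents labelled STAT. The groups are therefore C57 control, C57 STAT, IL10 control and IL10 STAT. The labels give no age, mother, litter or cage, so mice of a group may share a mother, and p-values measure only the spread between these samples. An inoculum effect and an effect of single mothers or cages cannot be told apart.

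In this pathway antigen-presenting cells release IL-12, a heterodimer of the p35 chain (Il12a) and the p40 chain (Il12b). IL-12 binds a receptor of the chains Il12rb1 and Il12rb2 on T cells and natural killer cells, and STAT4 and the transcription factor T-bet (Tbx21) then drive Ifng. Interferon-gamma acts through its receptor, of which Ifngr1 is the ligand-binding chain, and through JAK kinases on genes such as Irf1, Gbp5 and the feedback inhibitor Socs1. In the mouse gut, loss of IL-10 is a classic model of colitis in which IL-12 and interferon-gamma are prominent.

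Il10 itself went against its label. It was listed at 0.45, 1.02 and 0 in the C57 control samples and at 0 in every C57 STAT sample. In the IL10 control samples it stood at 35.2, 74.4 and 24.9, and in the IL10 STAT samples at 31.6, 49.2 and 38.6. The position of the probe is not given in the sources used here, so a probe outside the disrupted part would check nothing, and genotypes are called IL10-labelled and C57-labelled throughout. Counts above background, read from the step between values, were 146691 to 365850 in C57-labelled and 398625 to 717454 in IL10-labelled samples. Depth and genotype label cannot be told apart, since no C57-labelled sample reached the lowest IL10-labelled one. A signal of 20, used below as the limit of reliable signal, corresponds to 12.8 to 28.4 counts. The log2 signal of the median tested gene was 1.01 higher in IL10-labelled samples under the control inoculum and 0.50 higher under STAT, so each gene is read against these shifts. Of 14 epithelial marker genes 6 were in the table, and their summed signal was 27969 to 70703 in C57 control, 43385 to 69300 in C57 STAT, 50540 to 87685 in IL10 control and 63838 to 67920 in IL10 STAT. The ileal markers Vil1, Fabp6 and Defa24 were not among them, so the segment of gut was not checked.

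Irf1 and Socs1 were the members with high signal that differed most clearly between genotype labels, and the sequence upstream of each is shown because both are textbook targets of interferon signalling. The RefSeq sequences are of GRCm38.p6 and hold the 250 bases before the annotated start, read 5′ to 3′ on the strand of the gene. Irf1 lies at chr11:53769764-53770013 on the plus strand and Socs1 at chr16:10785537-10785786 on the minus strand. Capitals mark matches to the interferon-gamma-activated motif GAS (TTCNNNGAA, which reads the same on both strands) in Irf1 and to the interferon-response motif ISRE (a pair of GAAA with any 2 bases between them, searched on both strands) in Socs1.
Irf1: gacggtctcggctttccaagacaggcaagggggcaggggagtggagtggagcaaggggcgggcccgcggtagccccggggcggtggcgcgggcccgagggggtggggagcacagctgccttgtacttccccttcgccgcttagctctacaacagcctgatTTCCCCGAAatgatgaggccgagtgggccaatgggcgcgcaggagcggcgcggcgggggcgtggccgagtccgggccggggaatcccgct
Socs1: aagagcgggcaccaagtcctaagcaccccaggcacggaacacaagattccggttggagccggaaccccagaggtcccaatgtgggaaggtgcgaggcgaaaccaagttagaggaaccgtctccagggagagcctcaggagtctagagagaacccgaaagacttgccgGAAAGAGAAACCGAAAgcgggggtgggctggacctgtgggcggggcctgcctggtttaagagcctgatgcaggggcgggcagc
The Irf1 match begins 90 bases before the start, and a further annotated start of Irf1 had no match. In Socs1, matches at 83 and 77 bases overlap each other and form 1 run of capitals. Over all 32851 upstream windows of this length, 7.02% held a GAS match and 2.98% an ISRE match. Windows were found for 8 of the 9 measured members, all except Il12rb1. Il12rb2 and Ifng each had a GAS match, and Ifngr1, Tbx21, Il12a and Il12b had no match in these windows.

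Of the 9 measured members, 7 entered the test, which took genes whose signal reached 20 in 3 or more samples. Ifng reached 20 in 2 samples and Tbx21 in 1, and both were left out. Ifngr1, Irf1 and Socs1 were over 20 in all 12 samples. Il12a, Il12b, Il12rb1 and Il12rb2 reached 20 only in IL10-labelled samples, in 3, 6, 4 and 4 of them, so they entered the test through the group in which they are high. Their calls therefore describe signal that rises out of the background and are no measure of how common such changes are.

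**Figure D1:**
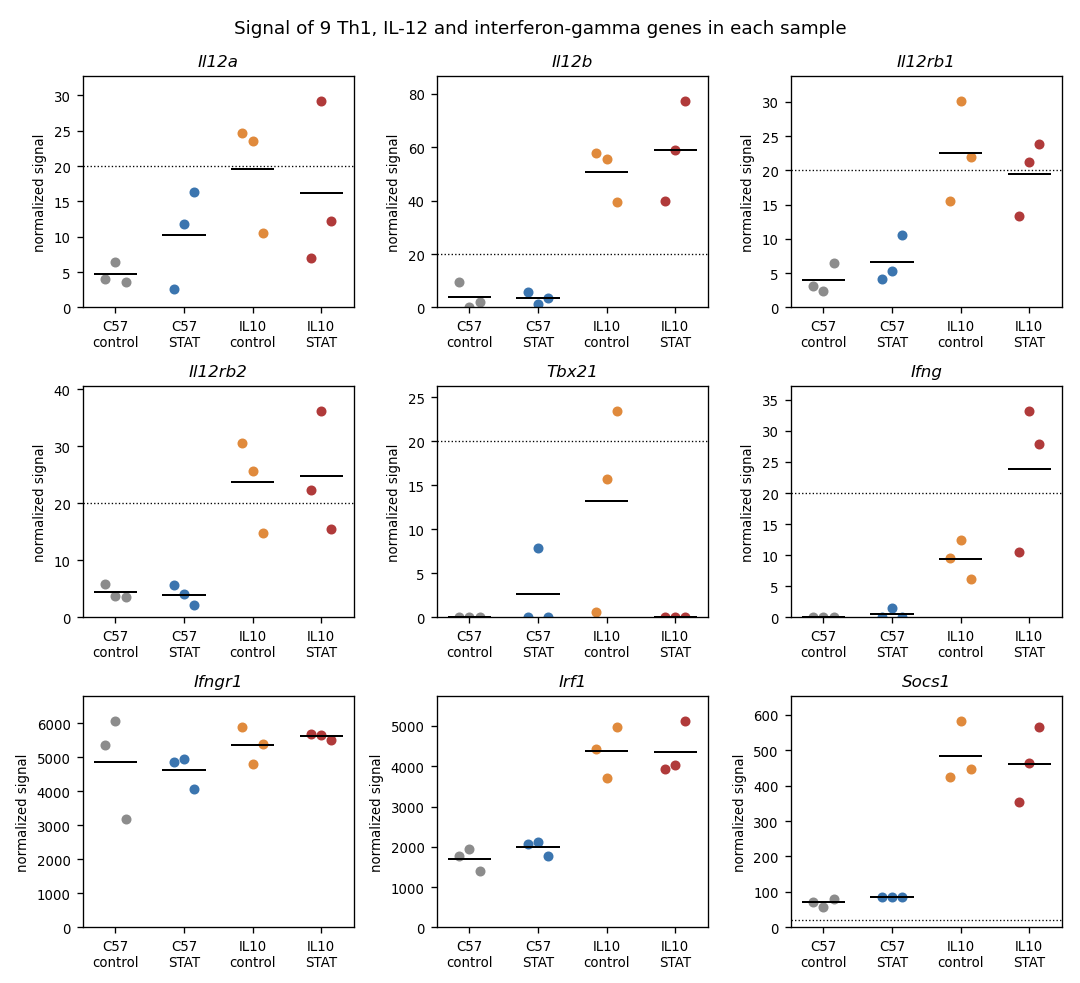
Normalized signal (y axis, linear from 0, a different range in each panel) of the 9 measured genes in each of the 12 samples. Points are samples, 3 per group, the short black lines are group means, and the dotted line, left out for Ifngr1 and Irf1, is a signal of 20. Il12b, Irf1 and Socs1 show all 6 IL10-labelled samples above all 6 C57-labelled samples, Ifngr1 shows no such gap, and Tbx21 is at 0 in all 3 IL10 STAT samples.

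The comparison of IL10-labelled with C57-labelled samples asks how the pathway stands in mice of the IL10 label. Under the control inoculum Il12b, Il12a, both IL-12 receptor chains, Irf1 and Socs1 were higher in IL10-labelled samples, and Ifngr1 was not called. Of the 3 members over 20 in every sample, 2 passed limma's test as higher, Irf1 and Socs1, under either inoculum. Among all 457 tested genes 57.5% passed under the control inoculum, 245 as higher and 18 as lower, and 51.6% under STAT, 183 as higher and 53 as lower, so this count of members does not stand apart from the panel. The other 4 tested members entered the test through IL10-labelled samples, and their calls are given singly. The groups did not overlap, with IL10-labelled samples higher, for 8 of the 9 measured members under the control inoculum, where 50.5% of all 547 genes did so, and for 7 of the 9 under STAT, where 42.0% did. Tbx21 is among the 8 only through an IL10 control value of 0.56, which rounds to 0 counts above background. The direction of the whole panel depended on the scaling. Under the control inoculum 93.2% of called genes were higher with the deposited scaling, 45.7% after median centring of the samples and 62.2% when scaled on the 199 genes of at least 100 in all samples. After quantile normalization 124 of 310 called genes were higher. Under STAT the shares were 77.5%, 48.4%, 60.1% and, after quantile normalization, 43.2%.

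Among the ligand chains, Il12b (p40, which IL-12 shares with IL-23) was near background in C57-labelled samples and above it in all IL10-labelled samples. Its signal was 9.50, 0 and 2.18 in C57 control and 5.66, 1.46 and 3.54 in C57 STAT. It was 57.7, 55.6 and 39.3 in IL10 control and 40.01, 59.2 and 77.4 in IL10 STAT, so every IL10-labelled sample lay far above every C57-labelled sample. With the C57-labelled groups set to 20, the rise was at least 2.54-fold under the control inoculum and at least 2.94-fold under STAT. The fitted log2 differences were 3.99 ± 0.69 (SE, adjusted p = 0.000505) and 3.78 ± 0.69 (adjusted p = 0.00118), n = 3 and 3 each. These differences rest on 0 to 11 counts above background in C57-labelled samples and 27 to 94 in IL10-labelled samples. Il12b passed in all 20 alternatives of both comparisons, with a log2 difference of 1.33 to 4.84 under the control inoculum and 1.51 to 4.11 under STAT, the lowest in both with values under 20 set to 20.

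Il12a, the p35 chain that makes the pair with p40 into IL-12, was low and scattered. Its signal was 4.07, 6.48 and 3.64 in C57 control and 2.54, 11.8 and 16.3 in C57 STAT. It was 24.6, 23.5 and 10.5 in IL10 control and 6.95, 29.2 and 12.3 in IL10 STAT. The IL10 control samples lay above the C57 control samples, while the STAT groups overlapped. The log2 difference was 1.78 ± 0.63 (adjusted p = 0.0297) under the control inoculum and 0.67 ± 0.63 (adjusted p = 0.392) under STAT. The rise under the control inoculum was lost without C57 control 1 (adjusted p = 0.0709) or C57 control 3 (0.0829), under median centring (0.61) and under broad-gene scaling (1.22). With values under 20 set to 20 it was 0.18, and quantile normalization turned it to -1.33. Both IL10-group means were under 20, so no fold is given.

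The receptor chains were also higher in IL10-labelled samples with the deposited scaling. Il12rb1, which IL-12 shares with the IL-23 receptor, had a signal of 3.17, 2.39 and 6.55 in C57 control and 4.10, 5.34 and 10.6 in C57 STAT. It was 15.6, 30.1 and 22.02 in IL10 control and 13.3, 21.2 and 23.8 in IL10 STAT, again above every C57-labelled sample. Its log2 difference was 2.27 ± 0.40 (adjusted p = 0.000558, at least 1.13-fold) under the control inoculum and 1.46 ± 0.40 (adjusted p = 0.0107) under STAT.

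Il12rb2, the chain specific to IL-12 that marks Th1 and natural killer cells able to respond to it, had a signal of 5.88, 3.75 and 3.64 in C57 control and 5.66, 4.05 and 2.12 in C57 STAT. It was 30.6, 25.7 and 14.8 in IL10 control and 22.4, 36.2 and 15.6 in IL10 STAT, and no C57-labelled sample reached the lowest of these. The log2 difference was 2.15 ± 0.39 (adjusted p = 0.000604, at least 1.19-fold) under the control inoculum and 2.37 ± 0.39 (adjusted p = 0.000526, at least 1.24-fold) under STAT. Both chains lie near the limit of reliable signal. With values under 20 set to 20, Il12rb1 had 0.24 and 0.11 and Il12rb2 0.33 and 0.34 in the 2 comparisons and neither passed, and under quantile normalization all 4 differences were below 0 and did not pass. Under median centring Il12rb1 passed in neither comparison (1.10 and 0.94), and under STAT it also did not pass with the broad-gene scaling (1.27, adjusted p = 0.0655).

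Tbx21, the master factor of Th1 cells, was at or near 0 in most samples. It was listed at 0 in all C57 control and all IL10 STAT samples, and at 0, 7.93 and 0 in C57 STAT. In IL10 control it was 0.56, 15.8 and 23.5. The highest of these is 16 counts above background, and it is the only sample over 20. IL10 STAT lay below IL10 control without overlap only through the value of 0.56, which rounds to 0 counts above background. In the fit with no filter on low values the log2 difference of STAT from control in IL10-labelled samples was -3.11 ± 1.07 and did not pass (adjusted p = 0.541). The same fit gave 3.11 ± 1.07 for IL10 control against C57 control (adjusted p = 0.0340). With one of these groups at 0 in each comparison, both sizes depend on the 1 added to each signal before the log. Tbx21 was not fitted under the other scalings.

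Ifng, the cytokine of the pathway, was listed at 0 in all C57 control samples and at 0, 1.46 and 0 in C57 STAT. It was 9.59, 12.4 and 6.14 in IL10 control and 10.5, 33.2 and 27.9 in IL10 STAT. Every IL10-labelled sample was above every C57-labelled sample, and the IL10 groups overlapped each other. Only the last 2 IL10 STAT values pass the limit of 20, at 33 and 34 counts above background, and the others of that genotype rest on 4 to 15. With C57 STAT set to 20, the mean of IL10 STAT was at least 1.19-fold higher, although its sample at 10.5 lies under 20 itself. Both control groups were below the limit. In the fit with no filter, Ifng was higher in IL10-labelled samples by 3.33 ± 0.47 under the control inoculum (adjusted p = 0.000271) and by 4.06 ± 0.47 under STAT (adjusted p = 0.000189). With C57-labelled samples at or near 0, these sizes depend on the 1 added to each signal before the log. Under the control inoculum the whole difference lies below the limit of 20, and Ifng was not fitted under the other scalings. Within the IL10 label the 3 samples with Tbx21 at 0 included both samples with the most Ifng. Most values of both genes lie under 20, so they cannot show whether Ifng and Tbx21 follow each other.

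Ifngr1, the ligand-binding chain of the interferon-gamma receptor, had high signal in all groups. It was 5363, 6070 and 3194 in C57 control, 4873, 4946 and 4063 in C57 STAT, 5884, 4803 and 5405 in IL10 control and 5694, 5664 and 5506 in IL10 STAT. The control groups overlapped. Under STAT every IL10-labelled sample lay above every C57-labelled sample, by a small margin. The log2 difference was 0.18 ± 0.24 (adjusted p = 0.558, 95% interval -0.34 to 0.71) under the control inoculum and 0.29 ± 0.24 (adjusted p = 0.349, -0.24 to 0.81) under STAT, both below the shift of the median gene. Its direction depended on the scaling. Centred on the sample median it was -0.99 under the control inoculum (adjusted p = 0.00195) and -0.24 under STAT (0.356), and scaled on the broadly measured genes -0.38 (0.0173) and 0.094.

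Irf1, a transcription factor induced by interferon-gamma that in turn activates Il12b and other genes, was clearly above background in every sample. Its signal was 1766, 1949 and 1389 in C57 control, 2063, 2110 and 1779 in C57 STAT, 4416, 3717 and 4963 in IL10 control and 3931, 4032 and 5122 in IL10 STAT. The lowest IL10-labelled sample exceeded the highest C57-labelled sample. The rise was 2.57-fold under the control inoculum (log2 1.36 ± 0.21, adjusted p = 0.000182) and 2.19-fold under STAT (1.13 ± 0.21, adjusted p = 0.00116). The size of this rise depended on the scaling, since centring on the sample median left 0.19 under the control inoculum, which did not pass (adjusted p = 0.452), and 0.61 under STAT (adjusted p = 0.0416). Quantile normalization gave 1.002 and 1.03, and the broad-gene scaling 0.80 and 0.94, all of which passed.

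Socs1, the feedback inhibitor of JAK kinases that interferon-gamma induces, rose most among the members measured well in every sample. Its signal was 72.8, 58.3 and 80.8 in C57 control, 85.2, 85.7 and 87.1 in C57 STAT, 425, 582 and 447 in IL10 control and 354, 463 and 566 in IL10 STAT. The gap between the genotype labels was wider than the spread within any group. The rise was 6.77-fold under the control inoculum (log2 2.76 ± 0.22, adjusted p = 3.92e-06) and 5.21-fold under STAT (2.38 ± 0.22, adjusted p = 1.70e-05). Socs1 passed in all 20 alternatives of both comparisons, with a log2 difference of 1.57 to 2.86 and 1.83 to 2.56.

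The difference between genes of 1 sample does not depend on how that sample was scaled. Relative to Ifngr1 in the same sample, log2 Irf1 was -1.64 to -1.20 in C57 control, -1.24 to -1.19 in C57 STAT, -0.41 to -0.12 in IL10 control and -0.53 to -0.10 in IL10 STAT. Relative to Ifngr1, log2 Socs1 was -6.68 to -5.29 and -5.84 to -5.53 in the C57 groups, and -3.79 to -3.04 and -4.00 to -3.28 in the IL10 groups. For both genes the 6 IL10-labelled samples lay above the 6 C57-labelled samples without overlap. Irf1 and Socs1 thus differed between the labels by more than Ifngr1 did, under any scaling that multiplies whole samples. Such a ratio does not say which of the genes changed.

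**Figure D2:**
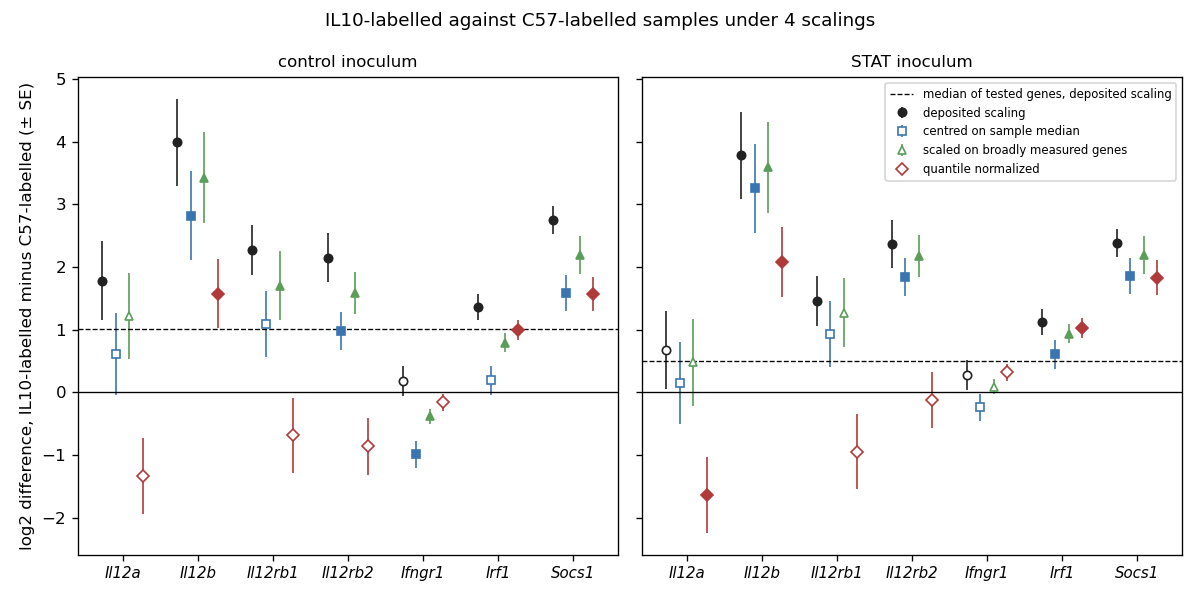
Log2 difference of IL10-labelled from C57-labelled samples (y axis, ± SE, 3 samples per group) for the 7 tested genes under the control inoculum (left) and STAT (right), each under 4 scalings. Filled symbols have an adjusted p under 0.05, open symbols do not, and the dashed line is the median of the 457 tested genes with the deposited scaling. Il12b and Socs1 stay above 0 and pass under every scaling, Ifngr1 changes sign, and the low genes Il12a, Il12rb1 and Il12rb2 fall below 0 only under quantile normalization.

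STAT against control inoculum within each genotype label was the question of the study, and no member passed in either. In C57-labelled samples 0 of 7 tested members passed, beside 0.875% of all tested genes, and the smallest adjusted p of a member was 0.503, that of Il12rb1. In IL10-labelled samples 0 of 7 passed, beside 0.0% of all tested genes, with the smallest at 0.913 for Il12a. At an unadjusted p under 0.05 there were 79 of the 457 genes (17.3%) in C57-labelled and 31 (6.78%) in IL10-labelled samples, and none of the 7 members among them. Outside the test, the limma fit with no filter gave an unadjusted p of 0.0164 for Tbx21 and 0.0346 for Ifng in IL10-labelled samples. The well-measured genes give the tightest limits. For Irf1 the ratio of STAT to control was 1.17 in C57-labelled samples (95% interval 0.86 to 1.61) and had an interval of 0.73 to 1.37 in IL10-labelled samples. For Socs1 the intervals were 0.87 to 1.73 and 0.67 to 1.33, and for Ifngr1 0.68 to 1.41 and 0.73 to 1.52. The IL-12 genes were far less certain, with intervals of 0.63 to 4.28 and 0.29 to 1.98 for Il12a and of 0.45 to 3.77 and 0.39 to 3.27 for Il12b.

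Socs1 was the only member whose samples did not overlap between the inocula in C57-labelled mice, at 58.3 to 80.8 with control and 85.2 to 87.1 with STAT, a log2 difference of 0.29 ± 0.22 (adjusted p = 0.576). Of all 547 genes 14.6% did not overlap in this comparison. The Socs1 difference lay close to the median of the tested genes, 0.24, and median centring turned it to -0.079. In IL10-labelled samples Tbx21 was the only such member, beside 20.7% of all genes, and its gap rests on a value that rounds to 0 counts. The 3 IL10 STAT samples had a mean Ifng signal of 23.9 ± 11.9 SD against 9.39 ± 3.16 SD in IL10 control. The groups overlapped, and in the fit with no filter the difference of 1.16 ± 0.47 did not pass (adjusted p = 0.591). The difference between the STAT effects in the 2 genotype labels was tested by itself, and 0 of 7 members passed, beside 0.0% of all tested genes. At an unadjusted p under 0.05 there were 97 of the 457 genes (21.2%) and none of the 7 tested members. Tbx21, left out of the test, had -4.16 ± 1.51 in the limma fit with no filter (unadjusted p = 0.0212, adjusted p = 0.211). The smallest adjusted p of a tested member was 0.471 for Il12rb1 (log2 -0.80 ± 0.57), and Il12a had -1.11 ± 0.88 (0.531).

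**Figure D3:**
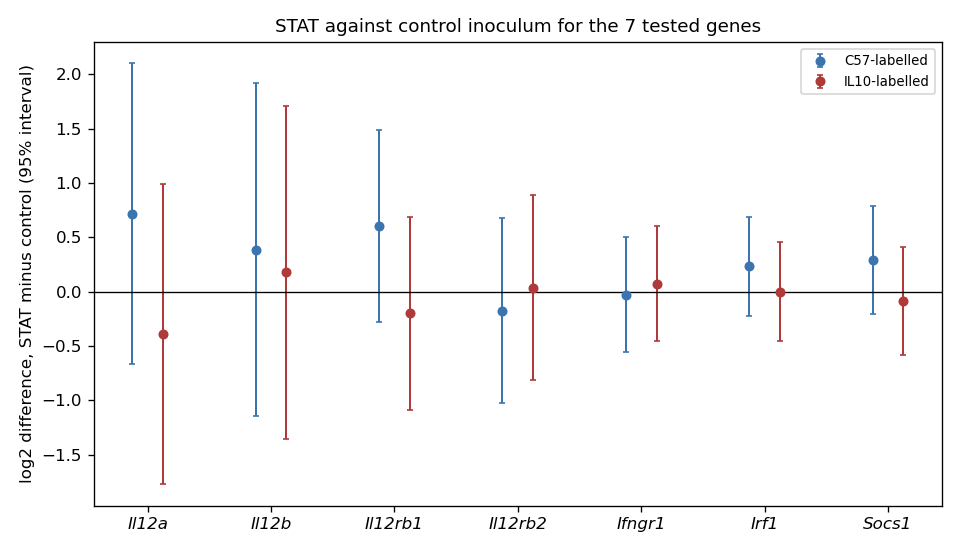
Log2 difference of STAT from control inoculum (y axis, with 95% intervals from the fit, 3 samples per group) for the 7 tested genes in C57-labelled (blue) and IL10-labelled (red) samples. All 14 intervals cross 0, and they are narrow for Ifngr1, Irf1 and Socs1 and wide for Il12a and Il12b.

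Other genes of the pathway were read from lists by role, and each list is given by its counts beside the panel. Of 18 tested interferon-gamma-induced genes, 17 rose in IL10-labelled samples under the control inoculum and 17 under STAT, with 0 lower in both. Their median was 3.00 and 2.22 on the log2 scale, against 1.01 and 0.50 for all tested genes, of which 57.5% and 51.6% passed. Under the other 3 scalings 14 to 16 of the 18 rose under the control inoculum, where 1 fell in each, and 14 to 17 under STAT, where 0 fell. Of all 457 tested genes 124 to 211 were called higher under the control inoculum with these scalings, and 121 to 175 under STAT. Cd74, the invariant chain of MHC class II, had a mean signal of 5984 ± 474 SD in C57 control and 73338 ± 10888 SD in IL10 control (log2 3.61 ± 0.23). Tap1, a peptide transporter of MHC class I loading, stood at 260 ± 49.8 SD in C57 STAT and 2310 ± 520 SD in IL10 STAT, and Psmb9, an immunoproteasome subunit, at 264 ± 17.1 and 1707 ± 304. The exception was Casp1, the inflammasome protease (log2 -0.14 ± 0.23 and 0.10 ± 0.23), and it was the gene that fell under the control inoculum with the other scalings.

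Of 11 tested genes of the receptor and JAK-STAT step, 6 rose under the control inoculum and 4 under STAT, with 0 lower and medians of 0.88 and 0.56 that lay near the panel's. Among all tested genes 57.5% and 51.6% passed, so these counts do not stand apart from the panel. Stat4, which carries the IL-12 signal, rose 4.79-fold under the control inoculum (log2 2.26 ± 0.39) and 2.68-fold under STAT (1.42 ± 0.39). After quantile normalization it had 0.48 under the control inoculum and did not pass. Ifngr2, the signalling chain of the interferon-gamma receptor, had -0.22 and -0.20, which did not pass, and -1.39 and -0.72 that passed when centred on the sample median. Under the control inoculum 5 genes of this list fell and 3 rose when centred on the median, 4 fell and 1 rose after quantile normalization, and 3 fell and 6 rose with the broad-gene scaling.

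Of 16 tested Th1 genes outside the members, 14 rose under the control inoculum and 0 fell, and 10 rose and 1 fell under STAT. The medians were 2.69 and 1.55, against 1.01 and 0.50 for all tested genes, of which 57.5% and 51.6% passed. Some of the 16 entered the test through IL10-labelled samples, so these counts and medians are no measure of how common such changes are. The highest C57-labelled signal of Tnf was 9.21 with control and 19.7 with STAT, and that of Il18rap 3.75 and 5.66. Ccl5, a T cell chemokine, rose 10.5-fold (log2 3.39 ± 0.31) and 8.46-fold (3.08 ± 0.31), and passed under all 4 scalings. The gene that fell under STAT was Il18, an epithelial cytokine that works with IL-12 to induce Ifng (-1.41 ± 0.22, adjusted p = 0.000469). Under quantile normalization 4 of the 16 rose and 1 fell under the control inoculum, and 6 rose and 1 fell under STAT. Stat4 and Il27ra stand on this list as well as on another. Of 4 tested IL-12 family genes outside the members, 3 rose under the control inoculum and 0 under STAT, with medians of 1.48 and 0.42 that quantile normalization turned to -0.29 and -0.54. After quantile normalization 1 of the 4 was called higher and 2 lower under the control inoculum, and 1 lower under STAT. With median centring and with broad-gene scaling 1 was called lower in each comparison. Il27ra, the IL-27 receptor, had a mean signal of 11.5 ± 9.50 SD in C57 control, 34.4 ± 10.7 in C57 STAT, 122 ± 44.2 in IL10 control and 79.1 ± 5.64 in IL10 STAT, and it passed under all 4 scalings under the control inoculum. Ebi3, a subunit of IL-27, rose by 1.85 ± 0.40, and had 0.68 with no call when centred on the sample median. In the STAT comparisons within a genotype label, 1 gene of these lists passed, and 0 passed in IL10-labelled samples. It was Cxcl9, a chemokine induced by interferon-gamma, in C57-labelled samples (1.38 ± 0.26, adjusted p = 0.0315), and its adjusted p was 0.196 to 0.509 under the other 3 scalings.

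**Figure D4:**
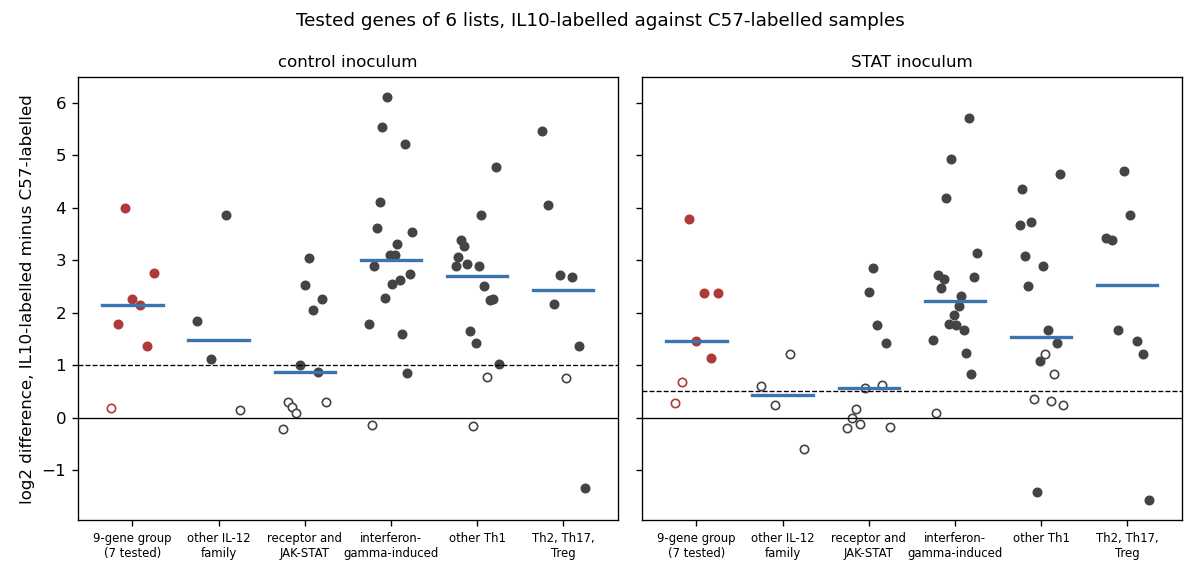
Log2 difference of IL10-labelled from C57-labelled samples (y axis) for every tested gene of the members (red) and 5 other lists (grey), under the control inoculum (left) and STAT (right). Filled points have an adjusted p under 0.05, blue bars are list medians and the dashed line is the median of the 457 tested genes. The interferon-gamma-induced list has the highest median under the control inoculum, and the receptor and JAK-STAT list lies near the panel median in both.

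By the pattern over the 12 samples, the genes most like Ifng were Ifit2, Tap1, Bst1, Cd274 and C2. Likeness was the root mean square difference of log2 signal after each gene was centred on its own mean, which was 0.64 to 0.68 for these 5 and had a median of 1.69 over the 450 tested non-members. All genes share these samples and their depth, so this is a description only. At 0.64, against 0.66 for Tap1, the closest pattern by a small margin was that of Ifit2, an interferon-induced gene. Its signal was 35.7 to 80.1 in C57 control, 44.6 to 101 in C57 STAT, 672 to 835 in IL10 control and 971 to 1147 in IL10 STAT. As for Ifng, its mean was highest in IL10 STAT. Cd274, which encodes PD-L1, was 53.1 to 74.6, 44.6 to 110, 445 to 516 and 287 to 630 in the same order.

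Markers of the cells that make and receive these signals had higher summed signal in IL10-labelled samples with the deposited scaling. Total signal was higher there as well, at 504724 to 645272 against 213509 to 379011 in C57-labelled samples. Fewer cells of a type and less RNA per cell cannot be told apart in bulk tissue. The summed signal of 13 T cell markers was 412 to 599 in C57 control, 584 to 813 in C57 STAT, 1824 to 2787 in IL10 control and 1458 to 1848 in IL10 STAT. The sum of 12 cytotoxic and NK cell markers was 287 to 425, 481 to 611, 1445 to 2176 and 1194 to 1409 in the same order, with Klrc3 at 0 in all 12 samples and Klra1 at 0 in all C57-labelled samples. For 11 macrophage and monocyte markers it was 1054 to 1383, 1430 to 2269, 3712 to 5391 and 3549 to 4558, and for 9 dendritic cell markers 870 to 1146, 1130 to 1648, 2552 to 2966 and 2340 to 2876. For 6 neutrophil markers it was 16.0 to 25.5, 7.08 to 48.2, 334 to 29769 and 1822 to 7499. Under the control inoculum and STAT, 11 and 10 of 11 tested T cell markers passed as higher, and 7 and 6 of 7 cytotoxic and NK cell markers. It was 10 and 7 of 11 for macrophages, 8 and 5 of 9 for dendritic cells, and 5 and 4 of 5 for neutrophils. Under STAT 1 macrophage and 1 dendritic cell marker passed as lower. Of 8 tested B cell markers 4 and 0 passed. Among all tested genes 57.5% and 51.6% passed. Some of these markers entered the test through IL10-labelled samples, so their counts are no measure of how common such changes are. In all C57 control samples 6 of 6 neutrophil, 7 of 12 cytotoxic and NK cell and 4 of 13 T cell markers were under 20. In all C57 STAT samples it was 5, 7 and 4. After quantile normalization 7 and 5 T cell markers passed as higher, and 2 and 1 cytotoxic and NK cell markers. For dendritic cells it was 3 and 4, with 1 lower in both comparisons. The part of these cells in the member differences was not tested. Within the IL10 label the mean of Ifng was higher with STAT and the T cell sums lay lower, with overlap in both and 0 of 11 tested T cell markers passing. Within the C57 label 1 of 7 cytotoxic and NK cell and 2 of 5 plasma cell markers passed as higher with STAT. Slamf7 stands on both lists. Among all tested genes 0.875% passed there, and 0 markers of these 2 lists passed after median centring or quantile normalization. For T cells, macrophages, dendritic cells, neutrophils and B cells 0 passed.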

How the data were processed

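The deposited table gives a normalized linear signal per gene and sample. Per the labels, TRIzol and RNeasy columns were used for extraction, and probes were read on the nCounter. How the authors normalized it, and with which software, is not given in the sources used here. All low positive values of a sample were whole steps apart within 0.01 steps (100% of them), as background-subtracted and scaled counts would be. Dividing the signal by the step gave the counts above background, and 0 columns belonged to no sample. Precision below a signal of 20 is limited by these counts.

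The log2 of signal + 1 of each deposited value entered limma 3.58.1 (R 4.3.3, lmFit and eBayes), with a single fit of the 4 groups. Genes that reached a signal of 20 in 3 or more of the 12 samples were kept, 457 of 547. The 5 comparisons were STAT against control in each genotype label, the difference between these effects, and IL10-labelled against C57-labelled under each inoculum. Benjamini-Hochberg adjustment ran over all 457 genes, and a call is an adjusted p under 0.05. Where all samples of a group were under 20, the fold is a lower bound for the ratio of the group means, with that group at 20. It takes no account of the spread between samples. The fit was tested on simulated data. The members and lists were chosen with earlier results of these data known. Named list genes are among the 4 of smallest p per list and comparison, apart from Casp1, Ifngr2 and Il18, which were named after their values were seen. Samples were grouped by their description label and numbered in record order. Alternatives were 3 other scalings, 2 treatments of low values (a pseudocount of 8, and values under 20 set to 20), no filter and a filter at 40, fits of only the groups compared, and each sample left out in turn. Some genes that the lists hold are not reported here by name. Promoter sequences are those of RefSeq, GRCm38.p6.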

Additional observations from a re-analysis of the deposited data

How the results depend on the processing

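Of 653 log2 differences of the 7 tested members under the alternatives, 580 kept both direction and call, 13 lost their call and 60 changed sign. Of those 60, 3 passed with the opposite sign where the deposited scaling gave no call, namely Ifngr1 under the control inoculum when centred (-0.99) and with broad-gene scaling (-0.38), and Il12a under STAT after quantile normalization (-1.63). None gained a call in its own direction. Where the alternative itself does not show the reason, the cause was not tested. Counting genes over the panel, STAT against control in C57-labelled samples called 4 genes, against 0 when centred on the median, 0 when quantile normalized and 1 with only the groups compared. Leaving out a sample gave 0 to 44 there (44 without C57 STAT 3, 0 without C57 control 1 or C57 STAT 1) and 0 to 58 for the difference between the STAT effects (58 without C57 STAT 3), where 0 passed with all samples. The number of members called under the control inoculum was 6, against 3 after quantile normalization, 3 with values under 20 set to 20, 3 with the filter at 40, which tests only 4 members, and 3 with only the groups compared, which also tests 4. Under STAT it was 5, against 3 with values at 20, 3 with the filter at 40 and 3 with only the groups compared. Leaving out a sample gave 5 to 6 and 5 to 5. With broad-gene scaling 5 members were higher and 1 lower under the control inoculum and 4 higher under STAT, with median centring 3 higher and 1 lower and 4 higher, and with quantile normalization under STAT 3 higher and 1 lower. These counts include the 4 members that entered the test through IL10-labelled samples. No member was called in the STAT comparisons or their difference under any alternative run.

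In IL10-labelled against C57-labelled samples, median centring turned Ifngr1 to -0.99 (control) and -0.24 (STAT), and the broad-gene scaling turned it to -0.38 under the control inoculum. Quantile normalization turned Ifngr1 to -0.16, Il12a to -1.33, Il12rb1 to -0.69 and Il12rb2 to -0.86 under the control inoculum, and Il12a to -1.63, Il12rb1 to -0.94 and Il12rb2 to -0.12 under STAT. That Il12a value had an adjusted p of 0.0378 in limma's test. Leaving out a sample gave -0.094 to 0.37 for Ifngr1 (control) and -0.017 to 1.13 for Il12a (STAT).

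None of the following sign changes concerns a called difference. For STAT against control in C57-labelled samples, Irf1 turned to -0.14 and Socs1 to -0.079 when centred, and Socs1 to -0.12 when quantile normalized. Without single samples the ranges were -0.31 to 0.16 for Ifngr1, -0.46 to 1.24 for Il12b and -0.43 to 0.12 for Il12rb2. In IL10-labelled samples Irf1 turned to 0.27 (centred), 0.15 (quantile) and 0.17 (broad-gene), Socs1 to 0.19, 0.14 and 0.087, Il12rb1 to 0.077 (centred) and Il12a to 0.0044 (values at 20). Without single samples the ranges were -0.0047 to 0.14 for Ifngr1, -0.12 to 0.10 for Irf1, -0.25 to 0.093 for Socs1, -0.77 to 0.051 for Il12a, -0.043 to 0.42 for Il12b, -0.43 to 0.040 for Il12rb1 and -0.27 to 0.32 for Il12rb2. For the difference between the STAT effects, Irf1 turned to 0.41 (centred), 0.032 (quantile) and 0.14 (broad-gene), Socs1 to 0.27 and 0.26 (centred and quantile) and Il12a to 0.0044 (values at 20). Il12b turned to 0.44, 0.51, 0.17, 0.14 (pseudocount 8) and 0.18 (values at 20). Without single samples the ranges were -0.083 to 0.38 for Ifngr1, -1.06 to 0.64 for Il12b and -0.092 to 0.49 for Il12rb2.

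No paired analysis was possible because the labels give no replicate numbers shared between groups. Signal near background limits Il12a, Il12rb1, Il12rb2, Tbx21 and Ifng.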

Other observations

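Genes of other helper programmes moved with the genotype label as well. Of 8 tested Th2, Th17 and regulatory T cell genes, 6 rose and 1 fell in IL10-labelled samples under the control inoculum. Under STAT 7 rose and 1 fell. Among all tested genes 57.5% and 51.6% passed. Ctla4, Il17a and Il17f stayed under 20 in every C57-labelled sample and entered the test through IL10-labelled samples. The counts of this list are therefore no measure of how common such changes are. Gata3, the Th2 factor, rose from 28.1 ± 8.17 SD in C57 control to 127 ± 12.6 in IL10 control (log2 2.17 ± 0.31, limma adjusted p = 0.000139, with 3 samples in each group), and did not pass after quantile normalization (0.49). Il4ra, the IL-4 receptor, rose from 681 ± 180 to 1715 ± 171 (log2 1.36 ± 0.26), and did not pass when centred on the sample median (0.19). Under the other 3 scalings 4 to 6 of the 8 rose and 1 to 2 fell under the control inoculum, and 5 to 7 rose and 1 fell under STAT.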
